A study of Mus musculus with 6 samples.

Results

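Mitochondrial complex I is described here through the genes named Nduf in the mouse, measured in muscle stem cells 24 hours after injury. Members were all rows of the deposited count table whose name begins with Ndufa, Ndufab, Ndufb, Ndufc, Ndufs, Ndufv or Ndufaf followed by a number. They were 50 of 45527 named rows, and the rule reads names only. By textbook role, 7 were core subunits, 29 accessory subunits and 8 Ndufaf assembly factors. A further 2, Ndufa4 and Ndufa4l2, belong to no role in complex I, and 4 were copies annotated as processed pseudogenes (Ndufb4c, Ndufa11b, Ndufs6b and Ndufab1-ps).

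The study measured RNA by sequencing in satellite cells, the stem cells of skeletal muscle, sorted by flow cytometry for yellow fluorescent protein (YFP). Lower hindlimb muscle had received 30 µl of cardiotoxin, a snake toxin that destroys muscle fibres, 24 hours earlier. The control group (3 libraries) was Pax7creER with 1 floxed Paxbp1 allele and the R26R-YFP reporter, and the group labelled Paxbp1-iKO (3 libraries) was Pax7creER with both Paxbp1 alleles floxed and the same reporter. Controls therefore also carried the recombinase, which the Pax7 gene drives and tamoxifen activates, and 1 allele open to it. The labels give no age, do not say whether animals were pooled and do not tie a library to an animal, so the p-values rest on the spread among these 6 libraries alone, part of which may be technical. The design text speaks of 3 pairs but names no shared animal. The main fit therefore used group alone, and a fit with the replicate number added is given as an alternative.

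Complex I is the entry point of the respiratory chain. It takes electrons from NADH, passes them along a row of iron-sulfur clusters in its peripheral arm to ubiquinone, and pumps protons through its membrane arm. The core subunits do this work and have bacterial relatives; some are encoded in the nucleus and the others in mitochondrial DNA. Accessory subunits surround and stabilise the core, and assembly factors help to build the complex without remaining in it. Quiescent satellite cells have few mitochondria, and respiration increases as they activate.

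Total counts were 23327359 to 28050748 per library. Levels are given as CPM, counts scaled to the size of the library after TMM scaling, which compare libraries but not genes. Paxbp1 itself was higher in the libraries labelled iKO, at 110 ± 15.4 CPM (SD, n = 3) against 68.6 ± 6.81 CPM in controls, which goes against the label; counts over the whole gene do not show whether the floxed part is deleted. Directions below are therefore directions in the libraries labelled iKO. The summed CPM of 10 satellite cell markers was 9804 to 10280 in controls and 12250 to 12860 in iKO-labelled libraries, but the markers went both ways. Of these, 5 were called higher: Pax7 (from 11.3 to 49.5 CPM), Sdc4 (from 3911 to 6087 CPM), Chodl, Vcam1 and Calcr. Another 3 were called lower (Myf5, Itga7 and Des). Markers of other cell types had lower sums, but none was at 0 in all libraries. The 7 myofibre genes summed to 17.7 to 66.8 CPM in controls and 13.5 to 17.4 in iKO-labelled libraries, and 6 leukocyte genes to 119 to 187 and 102 to 200. The 4 fibro-adipogenic genes summed to 155 to 331 and 167 to 217, and 4 endothelial genes to 29.9 to 101 and 40.6 to 48.1. Some single genes, such as Dcn (means of 201 and 148 CPM) and Lyz2 (102 and 117 CPM), were above Pax7. The 3 smooth muscle and pericyte genes summed to 212 to 311 and 85.2 to 108 CPM, a difference carried by Acta2 (197 and 41.9 CPM), since Myh11 (5.07 and 4.86 CPM) and Rgs5 (51.3 and 51.6 CPM) were near equal in the means. The part of these cell types in the results below was not tested.

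Of the 50 members, 48 passed the count filter, the exceptions being the copies Ndufa11b and Ndufs6b. Core subunits had fold changes below 0 in 6 of 7 cases, whereas those of the 29 accessory subunits lay on both sides of 0. By edgeR's quasi-likelihood test, calling a gene when its p, adjusted by Benjamini and Hochberg over every tested gene, was under 0.05, 13 of 48 members (27.1%) changed, against 20.4% of all 16252 tested genes. Members called lower numbered 8, where 12.3% of all tested genes were called lower, and members called higher numbered 5, where 8.15% of all tested genes were. The 3 control and 3 iKO-labelled values did not overlap for 24 of 48 members (50%), against 39.8% of all tested genes. Leaving out any 1 library changed these counts: the count called lower ranged from 4, without iKO replicate 2, to 9, without control replicate 1, and the count called higher was 0 without control replicate 2 or without iKO replicate 1 and 3 or fewer without any other. With the replicate number added to the fit (a replicate block), 6 members were called lower and 1 higher. Calls over all tested genes became fewer too. They were 1991 lower and 1324 higher in the main fit and 1402 lower and 813 higher with the block. Without 1 library they were 1347 to 1657 lower and 706 to 1159 higher. In bulk samples, fewer cells of a type and less RNA per cell cannot be told apart.

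By role, the core subunits had 4 of 7 called lower and none higher, with a median log2 fold change of -0.51. The accessory subunits had 4 of 29 called lower and 3 higher, with a median of 0.05. The assembly factors had 0 of 8 called lower and 2 higher, with a median of -0.19. In either direction, 57.1% of the core subunits, 24.1% of the accessory subunits and 25.0% of the assembly factors were called. The accessory and assembly shares were near the 20.4% of all tested genes. The median of all tested genes was 0.02. Scaling by library totals moved all of these medians up, that of all tested genes to 0.16, that of the core subunits to -0.37 and that of the accessory subunits to 0.18. With those totals, 7 members were called higher and 6 lower, and the calls over all tested genes turned from 1324 higher and 1991 lower to 1921 higher and 1440 lower. The median of the core subunits was below 0 under every scaling tried. The accessory median was close enough to 0 to change sign without control replicate 2 or without iKO replicate 2, where it was -0.01 and -0.02.

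**Figure D1:**
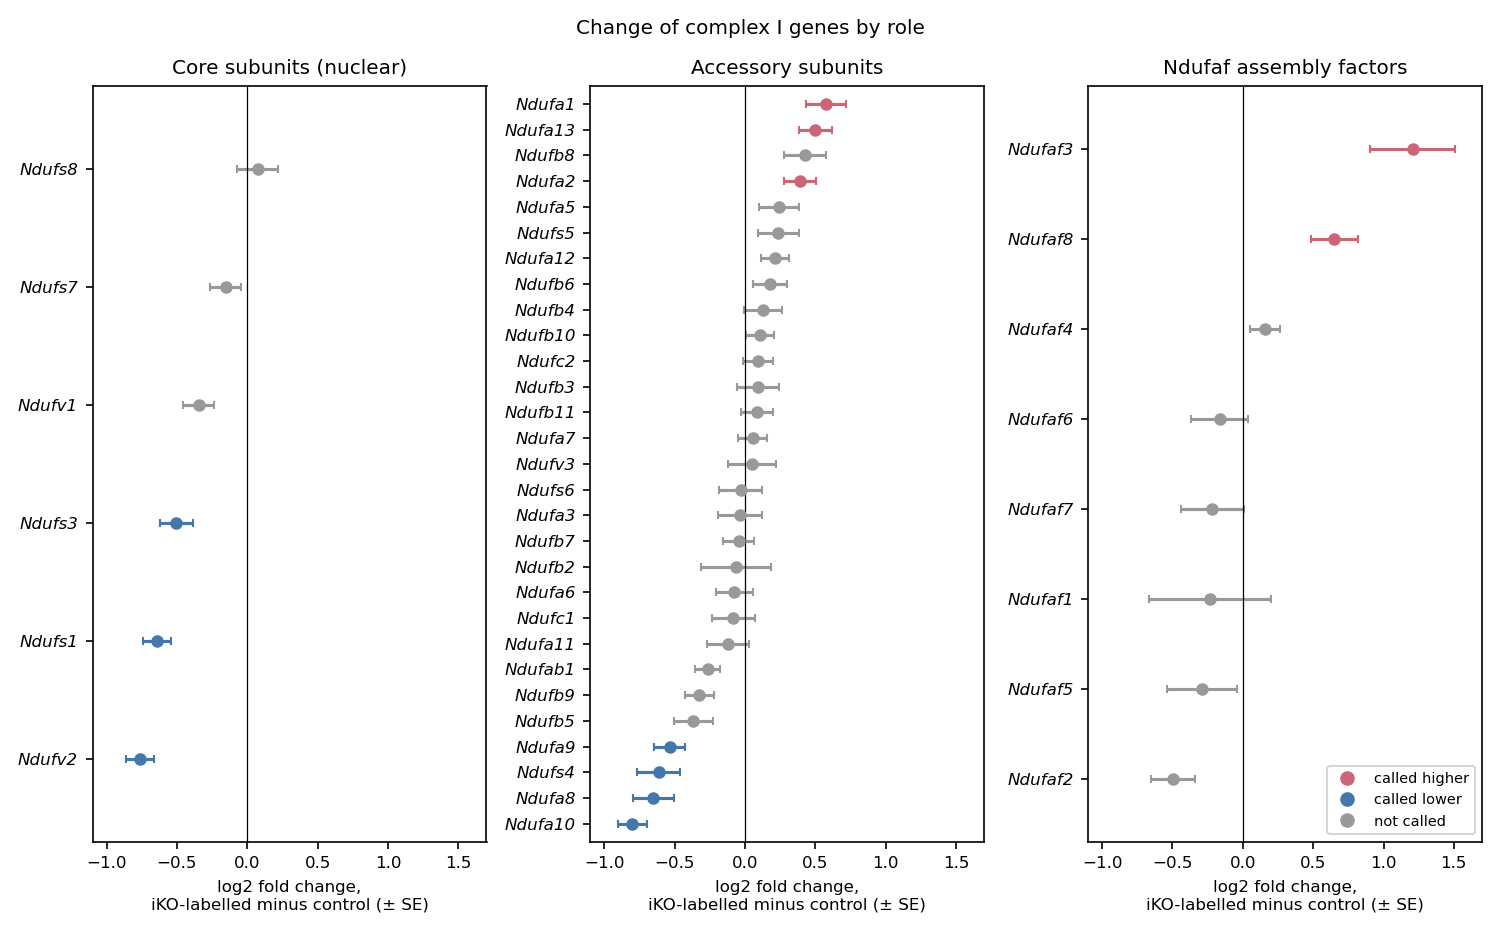
Log2 fold change of iKO-labelled over control libraries (x axis, bars ± SE) for core subunits, accessory subunits and Ndufaf assembly factors (y axis), coloured by call. Every core subunit shown other than Ndufs8 lies below 0, the accessory subunits run from -0.80 to 0.57, and Ndufaf3 lies farthest to the right at 1.21.

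The stretches just upstream of the start of 5 members that the results turn on are shown because they hold the letters of known regulators of respiratory genes in some members that moved, and in others none. Each is the 100 bases before the RefSeq start (GRCm38.p6), with motif matches in capitals. Ndufa8 and Ndufs3, which fell, have matches to NRF1 and to GABP/ETS, respectively. Ndufv2, which fell, and Ndufaf3, which rose, have none in these bases. Ndufaf8, which rose, has a GABP/ETS match directly before its start. All 5 were called, and members that were not called hold such matches too, among them Ndufb4 and Ndufa11.
Ndufa8, chr2:36049339-36049438, minus strand: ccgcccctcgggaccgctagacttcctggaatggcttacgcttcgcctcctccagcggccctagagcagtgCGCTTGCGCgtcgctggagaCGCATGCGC
Ndufs3, chr2:90904722-90904821, minus strand: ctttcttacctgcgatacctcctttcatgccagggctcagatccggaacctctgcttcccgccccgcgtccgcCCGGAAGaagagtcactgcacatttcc
Ndufv2, chr17:66101560-66101659, minus strand: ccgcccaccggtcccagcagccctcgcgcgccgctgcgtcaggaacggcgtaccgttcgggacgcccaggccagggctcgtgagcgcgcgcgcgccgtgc
Ndufaf8, chr11:120098834-120098933, plus strand: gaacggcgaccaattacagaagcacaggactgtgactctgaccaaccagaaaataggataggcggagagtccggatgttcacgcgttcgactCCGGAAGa
Ndufaf3, chr9:108567437-108567536, minus strand: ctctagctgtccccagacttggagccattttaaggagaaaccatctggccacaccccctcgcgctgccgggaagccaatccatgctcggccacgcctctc

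Motifs were searched on both strands from 250 bases before to 50 bases after each start, as GCGCANGCG for NRF1, CCGGAAG for GABP/ETS and AAGATGGCG for YY1. None of the 3 strings contains another. Of the 50 members, 40 had a promoter in the RefSeq table. NRF1 matched 10 of them (25.0%), against 14.4% of 10708 tested genes with a promoter, and YY1 matched 6 (15%), against 3.32%. GABP/ETS matched 6 (15%), against 18.7%. At least 1 of the 3 motifs was found in 20 of 40 members and in 31.9% of the tested genes. Members called lower had a match in 4 of 6 promoters and members called higher in 1 of 4. NRF1 matched 1 of those 6 and 0 of those 4, so most of its 10 matched members were not called. A match is only a run of letters and does not show that a factor binds there.

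The nuclear core subunits that fell include the largest subunit of the complex. Ndufs1 (chr1:63143596-63176833, minus strand), which holds several of the iron-sulfur clusters that lead away from NADH, had 144, 144 and 158 CPM in controls 1 to 3 and 106, 88.0 and 91.9 CPM in iKO-labelled libraries 1 to 3. Ndufv2 (chr17:66078638-66101559, minus strand), the small partner of the NADH-binding subunit with an iron-sulfur cluster of its own, had 87.4, 93.2 and 93.8 CPM in controls and 55.9, 53.6 and 52.2 CPM in iKO-labelled libraries. All 3 controls were above all 3 iKO-labelled libraries for both genes, by a margin wider than the spread within either group. Ndufs1 fell by 0.64 ± 0.10 (SE) on the log2 scale (adjusted p = 0.00385) and Ndufv2 by 0.76 ± 0.10 (adjusted p = 0.0016), both by edgeR's quasi-likelihood test.

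A subunit of the region that leads to ubiquinone fell as well. Ndufs3 (chr2:90894634-90904827, minus strand), whose upstream stretch is printed above, had 67.8, 71.2 and 72.3 CPM in controls and 55.5, 46.6 and 46.8 CPM in iKO-labelled libraries. Every control was again above every iKO-labelled library, and Ndufs3 fell by 0.50 ± 0.12 (edgeR adjusted p = 0.0195). The call of Ndufs3 ended when any 1 of control replicates 2 and 3 or iKO replicates 2 and 3 was left out (adjusted p up to 0.0796). It also ended with library totals and with a replicate block.

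Among the core subunits that did not pass the test, Ndufv1 (chr19:4007384-4012806, minus strand), which binds NADH and the flavin, had 176, 196 and 205 CPM in controls and 154, 167 and 133 CPM in iKO-labelled libraries. The groups did not overlap, but the change of -0.35 ± 0.11 had an edgeR adjusted p of 0.0563; it passed under 6 of 20 alternative settings. Ndufs7, which carries the last cluster before ubiquinone, had 70.1, 69.8 and 71.0 CPM in controls and 69.0, 62.0 and 58.4 CPM in iKO-labelled libraries. These values also did not overlap, but iKO-labelled replicate 1 lay just under the controls, and the change was -0.15 ± 0.11 (adjusted p = 0.379). Ndufs8, another iron-sulfur subunit of the same region, had 64.1, 84.7 and 94.0 CPM in controls and 87.2, 83.1 and 85.0 CPM in iKO-labelled libraries. The controls of Ndufs8 spanned the iKO-labelled values (0.07 ± 0.15, adjusted p = 0.785), and its sign rested on control replicate 1, without which the change was -0.07.

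**Figure D2:**
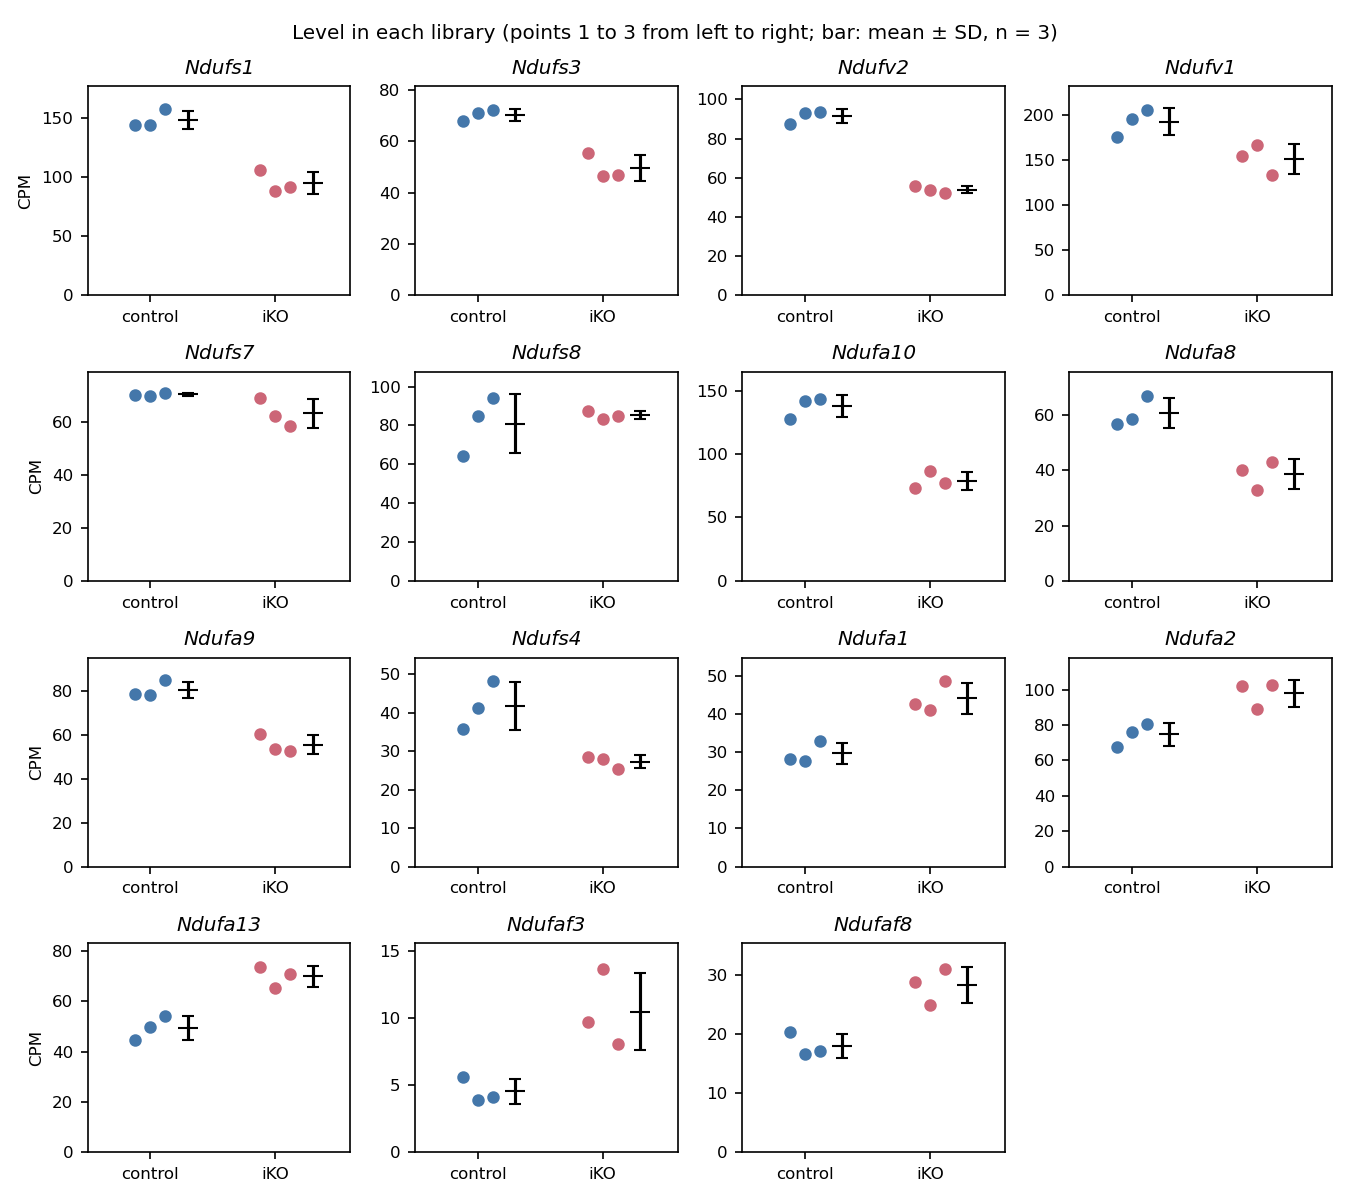
CPM (y axis, from 0) in each of the 3 control and 3 iKO-labelled libraries for core subunits and the other members that changed, with mean ± SD beside the points. Ndufs1, Ndufv2 and Ndufa10 show the widest gaps downward, and Ndufaf3 rises from below 6 CPM to between 8.07 and 13.7 CPM.

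Of the accessory subunits that fell, Ndufa10 (chr1:92439010-92473860, minus strand) changed most. This subunit has the fold of a nucleoside kinase and lies on the membrane arm. Ndufa10 had 128, 142 and 143 CPM in controls and 73.1, 86.8 and 76.9 CPM in iKO-labelled libraries. The highest iKO-labelled library was well under the lowest control, and Ndufa10 fell by 0.80 ± 0.10 on the log2 scale (edgeR's quasi-likelihood adjusted p = 0.00154). Ndufa10, Ndufs1 and Ndufv2 were among the 4 members called under all 20 alternative settings.

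Another 3 accessory subunits fell, from different places in the complex. Ndufa8 (chr2:36036326-36049406, minus strand), a subunit of the intermembrane space face with cysteine pairs, had 56.6, 58.3 and 66.9 CPM in controls and 39.9, 32.7 and 43.1 CPM in iKO-labelled libraries. Ndufa9 (chr6:126821721-126849136, minus strand), which binds a nucleotide near the junction of the arms, had 78.4, 77.9 and 84.8 CPM in controls and 60.3, 53.5 and 52.4 CPM in iKO-labelled libraries. Ndufs4 (chr13:114287795-114388258, minus strand), whose loss destabilises the NADH-binding module and causes a Leigh-like disease in mice, had 35.9, 41.2 and 48.3 CPM in controls and 28.57, 27.95 and 25.38 CPM in iKO-labelled libraries. Groups did not overlap for any of these genes, and for Ndufs4 the spread lay mostly among the controls. Ndufa8 fell by 0.65 ± 0.15 (adjusted p = 0.0164), Ndufa9 by 0.54 ± 0.11 (0.0114) and Ndufs4 by 0.61 ± 0.15 (0.0258), by edgeR. These calls were less firm than that of Ndufa10. The call of Ndufa9 ended without iKO replicate 2 (adjusted p = 0.0517), and that of Ndufa8 without control replicate 3 or iKO replicate 2 (up to 0.0619). That of Ndufs4 ended without any 1 library other than control replicate 1 (up to 0.0948), with library totals and with a replicate block.

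The accessory subunits that rose are small proteins. Ndufa1 (chrX:37187588-37191163, minus strand), a short membrane subunit encoded on the X chromosome, had 28.3, 27.8 and 32.9 CPM in controls and 42.6, 41.1 and 48.7 CPM in iKO-labelled libraries. Ndufa13 (chr8:69894180-69902558, minus strand), also known as GRIM-19 and as a partner of Stat3, had 44.8, 49.7 and 54.1 CPM in controls and 73.5, 65.5 and 71.0 CPM in iKO-labelled libraries. Ndufa2, a thioredoxin-like subunit of the NADH-binding module, had 67.6, 76.0 and 80.6 CPM in controls and 102, 89.1 and 103 CPM in iKO-labelled libraries. All 3 genes had every iKO-labelled library above every control. Ndufa1 rose by 0.57 ± 0.14 on the log2 scale (edgeR adjusted p = 0.0242), Ndufa13 by 0.50 ± 0.12 (0.0215) and Ndufa2 by 0.39 ± 0.11 (0.0435). With 1 library fewer, the calls of Ndufa1 and Ndufa13 held only without control replicate 3 (adjusted p otherwise up to 0.0947 and 0.0704), and that of Ndufa2 ended without any of the 6 (up to 0.132). The calls of Ndufa1 and Ndufa2 also ended when a trend with gene length was removed. A replicate block ended those of Ndufa2 and Ndufa13. On the opposite strand, Tssk6 shares 375 exonic bases with Ndufa13 (30.0% of them) but was at only 0.208 CPM.

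The other 22 accessory subunits were not called, with log2 fold changes from -0.37 to 0.43. None of the 10 Ndufb subunits, which lie in the membrane arm, passed the test, and their median was 0.09. Of all tested genes 20.4% were called, and 10 genes are too few to tell this count from that share. Close to the threshold, and picked once the values were known, were Ndufb9 at -0.33 ± 0.10 (edgeR adjusted p = 0.0604), Ndufab1, the mitochondrial acyl carrier protein, at -0.27 ± 0.09 (0.0716), Ndufb8 at 0.43 ± 0.15 (0.0877) and Ndufb5 at -0.37 ± 0.14 (0.103). The groups did not overlap for any of these 4, which was also so for 39.8% of all tested genes. Of these, Ndufb9 passed under 7 and Ndufb8 under 8 of the 20 alternative settings.

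Set by position, the 16 subunits of the peripheral arm had 6 called lower and 1 higher, with a median log2 fold change of -0.12. That is 43.8% called, against 20.4% of all tested genes. The 19 membrane arm subunits encoded in the nucleus, all accessory, had 2 called lower and 2 higher, with a median of 0.08. Their share of 21.1% called was near that of all tested genes. The core subunits encoded in mitochondrial DNA, which include proton-pumping subunits of the membrane arm, were counted in neither arm. These 7 had 6 called lower (85.7%, against 12.3% of all tested genes) and none higher, with a median of -1.78. All 7 nuclear core subunits are in the peripheral arm, so this comparison of arms is not separate from that of core and accessory subunits. The 9 accessory subunits of the peripheral arm had 2 called lower and 1 higher, with a median of 0.05, so that their median was close to that of all 29 accessory subunits. Without iKO replicate 2, 3 subunits of the peripheral arm were called lower. Ndufab1 sits in both arms and was counted in neither.

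Summed over their genes, the core subunits made 754, 820 and 849 CPM in controls and 622, 586 and 567 CPM in iKO-labelled libraries. The 29 accessory subunits made 1580, 1651 and 1773 CPM in controls and 1668, 1580 and 1574 CPM in iKO-labelled libraries. The core sums did not overlap and the accessory sums did. The ratio of the core sum to the accessory sum was 0.477, 0.497 and 0.479 in controls and 0.373, 0.371 and 0.360 in iKO-labelled libraries, with a wide gap between the groups. This ratio lies within a library and so does not depend on its scaling. The 8 Ndufaf factors together had 220 ± 12 CPM (SD, n = 3) in controls and 229 ± 11.3 CPM in iKO-labelled libraries.

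**Figure D3:**
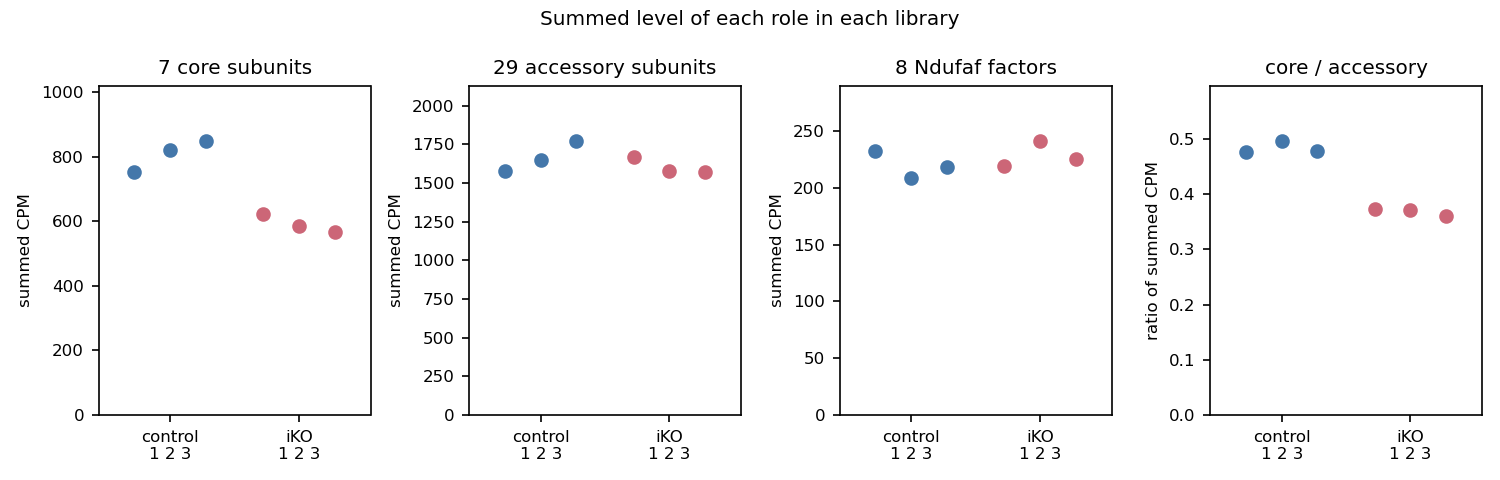
Summed CPM of the core subunits, accessory subunits and Ndufaf factors, and the ratio of core to accessory sums (y axes, from 0), in control (blue) and iKO-labelled (red) libraries 1 to 3. The core sum is 754 to 849 in controls and 567 to 622 in iKO-labelled libraries, whereas the accessory and Ndufaf sums overlap between groups.

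Among the assembly factors, Ndufaf3 and Ndufaf8 rose. Ndufaf3 (chr9:108565537-108567434, minus strand), which works with Ndufaf4 on the early ubiquinone module, had 5.59, 3.94 and 4.10 CPM in controls and 9.71, 13.7 and 8.07 CPM in iKO-labelled libraries. These rest on 125, 102 and 107 counts against 277, 401 and 199 counts. Ndufaf8 (chr11:120098928-120100705, plus strand), a partner of Ndufaf5, had 20.3, 16.6 and 17.1 CPM in controls and 28.8, 25.0 and 31.0 CPM in iKO-labelled libraries. For both genes every iKO-labelled library was above every control, and the iKO-labelled values of Ndufaf3 were widely spread. Ndufaf3 rose by 1.21 ± 0.30 on the log2 scale (edgeR adjusted p = 0.0256) and Ndufaf8 by 0.65 ± 0.17 (0.0289). Each call ended without control replicate 2, control replicate 3 or iKO replicate 1, that of Ndufaf3 also without iKO replicate 2 and that of Ndufaf8 without iKO replicate 3 (adjusted p up to 0.106 and 0.109). Both calls also ended with a replicate block. Ndufaf3 overlaps Impdh2 on the opposite strand over 48 bases (2.64% of its exonic bases), and Impdh2 was at 317 CPM; the libraries do not mark strand.

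The partners of the pair that rose did not pass the test. Ndufaf4 had 106, 92.3 and 95.4 CPM in controls and 98.2, 117 and 112 CPM in iKO-labelled libraries, which overlapped (0.16 ± 0.10, edgeR adjusted p = 0.361). Ndufaf5, an enzyme that modifies Ndufs7, had 10.1, 12.2 and 9.92 CPM in controls and 9.53, 10.2 and 6.69 CPM in iKO-labelled libraries, which overlapped as well (-0.29 ± 0.25, adjusted p = 0.488).

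Ndufaf2, which helps to place the NADH-binding module and is a relative of the subunit Ndufa12, had 26.9, 30.6 and 31.0 CPM in controls and 19.0, 20.4 and 23.5 CPM in iKO-labelled libraries. Its groups did not overlap, yet the change of -0.50 ± 0.15 missed the threshold (edgeR adjusted p = 0.0582) and passed under 7 of 20 alternative settings. On the opposite strand, B230220B15Rik shares 65.6% of the exonic bases that GENCODE M21 gives Ndufaf2, which are 2978 in number, against a length of 679 bases behind its FPKM. Ndufaf1, a member of the complex that builds the membrane arm, had 17.4, 12.9 and 14.7 CPM in controls and 19.0, 14.4 and 4.87 CPM in iKO-labelled libraries. The low value of iKO replicate 3 decided its sign: the change was -0.23 ± 0.43 (adjusted p = 0.769) with it and 0.16 without it.

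Ndufaf6, needed for early assembly, had 20.2, 23.9 and 26.8 CPM in controls and 17.1, 25.5 and 20.6 CPM in iKO-labelled libraries (-0.16 ± 0.20, edgeR adjusted p = 0.637). Ndufaf7, a methyltransferase, had 26.0, 15.7 and 19.3 CPM in controls and 18.2, 15.3 and 19.0 CPM in iKO-labelled libraries (-0.22 ± 0.22, adjusted p = 0.565). Both genes overlapped between groups.

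Of the rows that are no complex I subunit, Ndufa4, now assigned to cytochrome c oxidase, had 150, 160 and 161 CPM in controls and 180, 169 and 158 CPM in iKO-labelled libraries. Its groups overlapped (0.11 ± 0.08, edgeR adjusted p = 0.421), and the change was -0.03 once trends with length and GC content were removed. Its paralogue Ndufa4l2, known as a gene induced by hypoxia, was near 1 CPM or below in all libraries, at 1.12, 1.20 and 0.88 CPM in controls and 0.39, 0.31 and 0.97 CPM in iKO-labelled libraries (-0.94 ± 0.73, adjusted p = 0.435). At that level no difference was detectable. The copies Ndufb4c and Ndufab1-ps were tested and not called. In all, 12 of the 50 members had another annotated gene with at least 95% identity over 200 or more bases, so reads could be split between them. Of the 13 members that changed, Ndufs3 was the only one with such a copy, and the copy's level was 3.58% of that of Ndufs3.

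Between genes, levels were compared per length in the deposited FPKM (fragments relative to the length of a gene and the size of a library). Ndufa4 was highest, at 311 ± 15.2 FPKM (SD, n = 3) in controls and 339 ± 22.2 in iKO-labelled libraries. Among the subunits, Ndufb9 followed with 166 ± 14.4 and 134 ± 9.86 FPKM and Ndufa2 with 128 ± 12.4 and 169 ± 13.3 FPKM, so that Ndufb9 led in controls and Ndufa2 in iKO-labelled libraries. Core subunits ran from Ndufs8, at 82.1 ± 16.3 and 87.2 ± 2.18 FPKM, down to Ndufs1, at 18.0 ± 1.06 and 11.6 ± 1.15 FPKM. The lowest subunit was Ndufb2, at 2.64 ± 0.48 and 2.56 ± 0.64 FPKM, and the lowest assembly factor in controls was Ndufaf3, at 2.44 ± 0.46 FPKM, with 5.70 ± 1.56 in iKO-labelled libraries.

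This order depends on the length used. The gene length behind the FPKM was within 1% of the summed exons of GENCODE M21 for 32 of 50 members and differed for 18, Ndufa4 (492 against 1381 bases) and Ndufb9 (651 against 1031 bases) among them. For Ndufs1 it was 8086 bases, against 2661 bases for its principal transcript. With principal transcripts, an alternative chosen after seeing the data, Ndufs1 had 54.6 FPKM in controls and 35.3 in iKO-labelled libraries, and Ndufb7 had 102 FPKM in controls in place of 14.0. The fold between groups in FPKM is the same with either length.

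**Figure D4:**
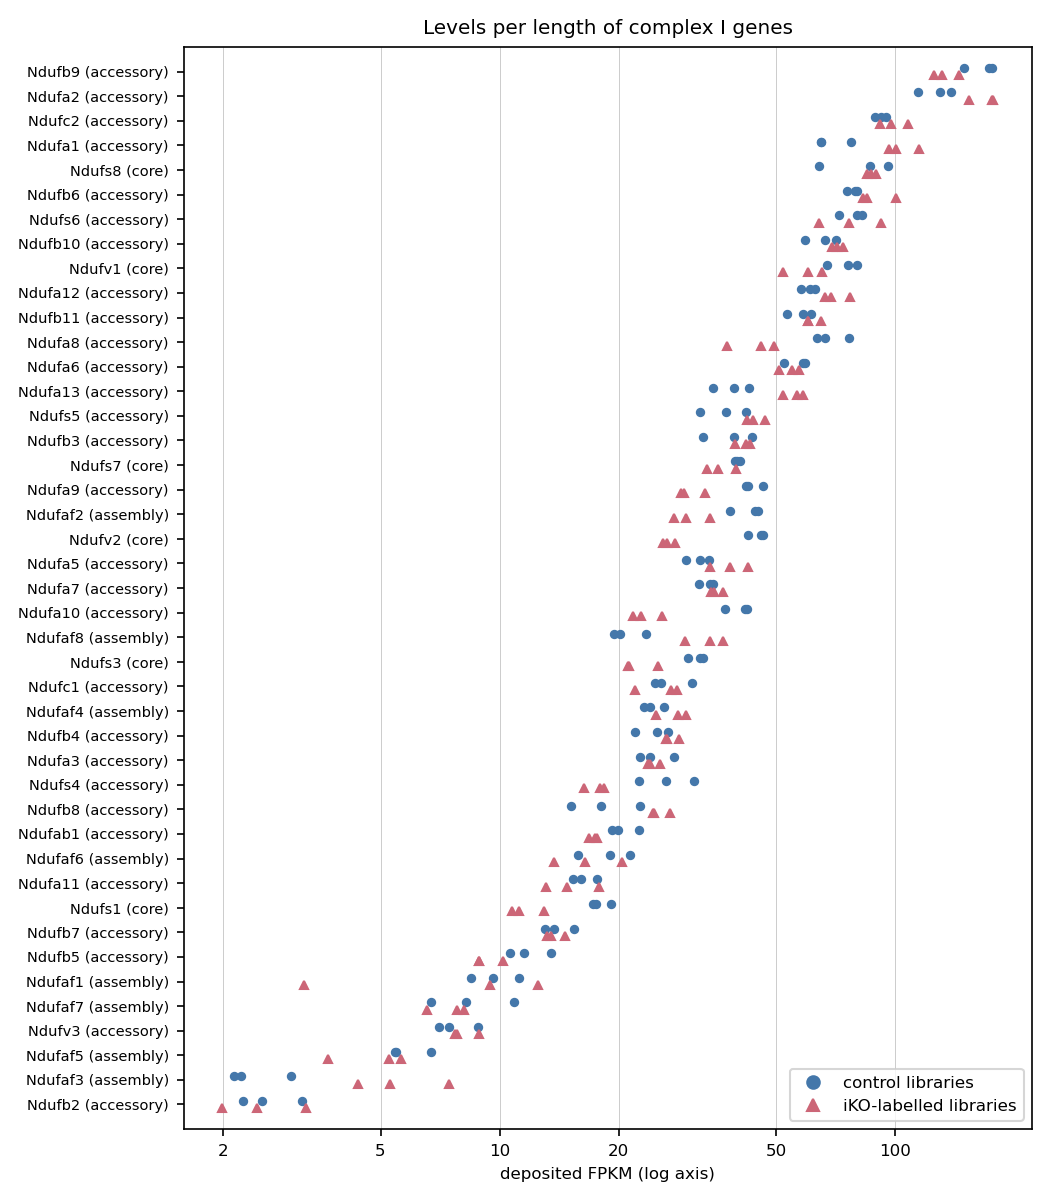
Deposited FPKM (x axis, log scale) of core subunits, accessory subunits and Ndufaf factors (y axis, ordered by mean) in the 3 control (circles) and 3 iKO-labelled (triangles) libraries. Levels run from about 2 FPKM for Ndufb2 to above 100 FPKM for Ndufb9 and Ndufa2.

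Longer subunit genes tended to have lower fold changes. Over the 36 core and accessory subunits, the length behind the FPKM and log2 fold change had a Spearman's rho of -0.49, and over the 29 accessory subunits -0.39. With GENCODE exonic lengths, also chosen after seeing the data, these were -0.54 and -0.46, and with principal transcripts -0.53 and -0.36. Over all 16252 tested genes the rho was -0.03. These are correlations across genes, which share the 6 libraries and are not independent, and no test was made of them. The 13 subunits under 1000 bases had a median of 0.08, with 2 called higher and 1 lower, while the 1814 tested genes of that length had a median of 0.13, with 105 called higher and 94 lower. The 12 subunits of 2000 bases or more had a median of -0.31, with 4 called lower (33.3%) and none higher, while the 11976 tested genes of that length had a median of 0.00, with 1624 called lower (13.6%) and 1041 higher. Each of these length groups holds fewer than 20 subunits, and 4 of the 7 core subunits are in the longest. With the trend over all genes removed, the median was -0.53 for the core subunits, 0.03 for the accessory subunits and -0.21 for the assembly factors. That trend was weak (rho of -0.03), so its removal does not take out the stronger relation with length among the subunits themselves. The part of length in the difference between roles was not tested.

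**Figure D5:**
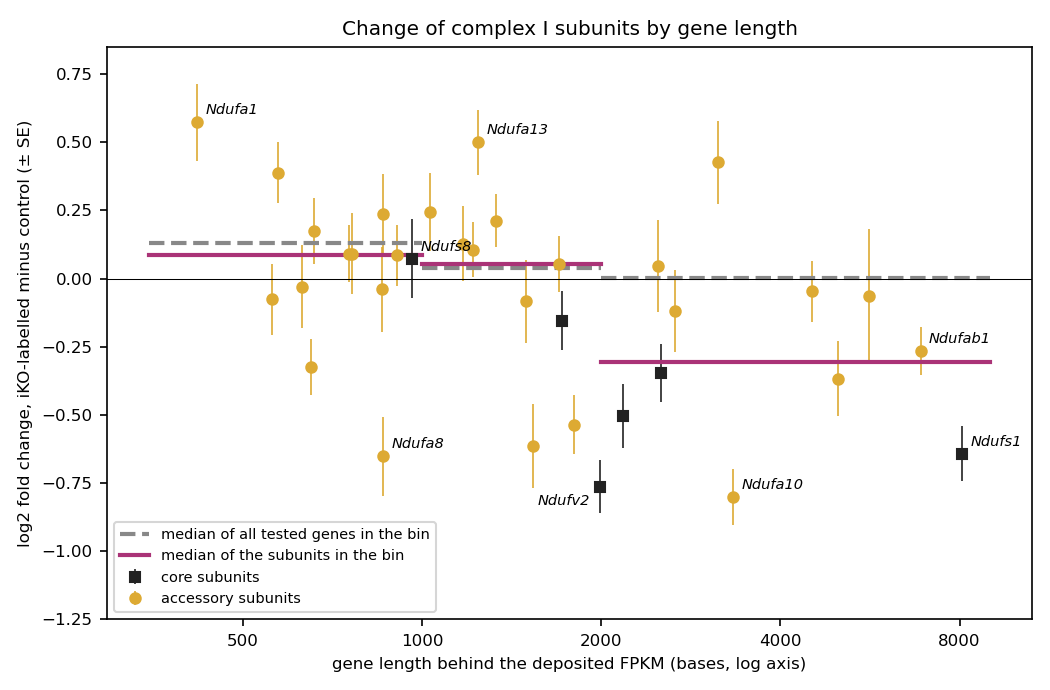
Log2 fold change (y axis, bars ± SE) of the subunits against the gene length behind the FPKM (x axis, bases, log scale), with medians of subunits and of all tested genes in 3 length groups. The subunit median is -0.31 at 2000 bases or more, where that of all tested genes is near 0.

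The rest of the pathway was read from gene lists chosen by role. The 7 core subunits encoded in mitochondrial DNA had 6 called lower (85.7%) and none higher, with a median log2 fold change of -1.78. Of all tested genes, 12.3% were called lower. mt-Nd1, part of the proton path next to the ubiquinone site, had 4941, 4868 and 4880 CPM in controls and 922, 866 and 855 CPM in iKO-labelled libraries, and fell by 2.47 ± 0.05 on the log2 scale (edgeR adjusted p = 6.58e-07). mt-Nd4, a proton-pumping subunit, had 913, 836 and 794 CPM in controls and 217, 202 and 193 CPM in iKO-labelled libraries, and fell by 2.06 ± 0.08 (adjusted p = 1.94e-05). Both genes lay far apart between groups and close together within them, and both were called under every alternative that kept them. mt-Nd3, the uncalled gene, was far lower, at 3.74 CPM in the control mean and 1.78 CPM in the iKO-labelled mean. Its groups did not overlap, and its change was -1.07 ± 0.41 (edgeR adjusted p = 0.11).

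The sum of mitochondrially encoded core subunits was 21.8, 19.1 and 17.9 times that of the nuclear core subunits in controls, in FPKM, and 5.39, 5.16 and 5.36 times in iKO-labelled libraries. The lowest control ratio was above the highest iKO-labelled ratio. Most of the mitochondrial sum was mt-Nd1, with 4993 of 6928 FPKM in the control means and 909 of 1503 in the iKO-labelled means. The mitochondrial transcripts are processed from long precursors, and the sources used here do not say how reads were divided between neighbouring genes.

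Of 10 assembly factors under other names, 1 was called lower and 1 higher, with a median of -0.03; this share of 20% was near the 20.4% of all tested genes. Acad9, a partner of Ndufaf1 in building the membrane arm, had 29.6, 37.1 and 59.0 CPM in controls and 15.8, 21.2 and 20.2 CPM in iKO-labelled libraries, with no overlap, and fell by 1.14 ± 0.26 (edgeR adjusted p = 0.019). Its call ended without any 1 of the iKO-labelled libraries (adjusted p up to 0.0719). Dmac1, a factor for the distal membrane arm, had 21.4, 18.1 and 22.8 CPM in controls and 34.7, 29.8 and 28.1 CPM in iKO-labelled libraries. It rose by 0.57 ± 0.16 (adjusted p = 0.042), a call that ended without any 1 of the 6 libraries (up to 0.130).

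Of 14 genes for building iron-sulfur clusters, 3 were called lower and none higher (21.4%, near the 20.4% of all tested genes), with a median of -0.24. Lyrm4, which stabilises the cysteine desulfurase that supplies the sulfur, had 27.5, 29.2 and 34.1 CPM in controls and 17.5, 12.4 and 16.0 CPM in iKO-labelled libraries, with no overlap. Lyrm4 fell by 0.99 ± 0.19 on the log2 scale and was called under all alternatives (edgeR adjusted p up to 0.0361). Hspa9, the mitochondrial Hsp70 that also drives protein import, had 1620, 1572 and 1563 CPM in controls and 1413, 1303 and 1313 CPM in iKO-labelled libraries, and fell by 0.24 ± 0.06 (adjusted p = 0.020), a call lost under 13 of 20 alternatives. The third was Nfu1, which hands clusters to their targets. Of 9 regulators of respiratory genes, among them Nrf1, Gabpa, Yy1 and Tfam, none was called, with a median of 0.09.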

How the data were processed

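RNA was reverse transcribed and amplified by Smart-Seq2, which does not mark strand, per the labels' protocols. The authors deposited raw counts of reads, by gene, for each library. They also deposited FPKM values for these genes, scaled to a gene length and to median-of-ratios size factors, as the ratio of count to FPKM shows; for 78.9% of 32940 rows that length was within 1% of the summed exons of GENCODE M21. Among the tools in the submitters' processing notes are featureCounts, Subread, STAR, Trim Galore and DESeq2, with the mouse build mm10. Versions and roles, the strand setting and the handling of reads with several matches: not given in the sources used here.

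Of 46078 rows, 551 had no gene name (0.108% to 0.123% of a library's counts) and were left out. Counts were fitted with edgeR 4.0.16 in R 4.3.3: filterByExpr (minimum count 10, minimum total 15), TMM scaling, and a quasi-likelihood fit of all 6 libraries on group alone. Adjusted p-values are Benjamini-Hochberg values over 16252 genes, and all adjusted p-values in the text come from this fit unless another is named. SE is the size of the log2 fold change over the root of F. The script was tested on simulated counts. Alternatives used DESeq2 1.42.0, limma 3.58.1 (voom, and log2(FPKM + 1) or log2(FPKM + 0.1), keeping genes that average 1 FPKM or more, or all genes), other scalings and filters, a replicate block, length and GC trends, a table without the mitochondrially encoded genes, and the removal of each library in turn.

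Members and gene lists were chosen with earlier results of these data known. Given in full are the core subunits, the Ndufaf factors, accessory subunits called higher, up to 8 called lower by adjusted p, Ndufa4, Ndufa4l2 and the 3 highest members by FPKM; from each other list, the 2 called genes of smallest adjusted p and any called against the list's majority. Other names were picked after their values were seen. The values of 1 member are not reported here; it stays in all counts, sums and medians. Positions of genes are from GENCODE M21 (GRCm38). No replicate number is shown by the labels to mark shared animals.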

Additional observations from a re-analysis of the deposited data

How the results depend on the processing

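Of the 13 members called, 4, among them Ndufs1, Ndufv2 and Ndufa10, were called under all 20 alternatives and 9 lost their call under at least 1. The core median kept its sign under all 20; it was -0.37 with library totals and -0.60 to -0.46 with each library left out. The accessory median was 0.13 with upper-quartile factors, 0.18 with library totals, 0.12 with genes kept only at 5 CPM or more in 3 libraries, and -0.0211 to 0.0836 with each library left out. The median of the Ndufaf factors was -0.057 with library totals and -0.229 to 0.00692 with each library left out. Upper-quartile factors also moved the all-gene median, to 0.10.

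With each library left out, 0 to 3 members were called higher and 4 to 9 lower. Core subunits called lower were 3 to 4, accessory subunits called lower 1 to 5 and higher 0 to 3, and Ndufaf factors called higher 0 to 2. Genes of the other complex I lists called lower were 7 to 9, and called higher 0 to 0. In the peripheral arm 3 to 6 were called lower and 0 to 0 higher, and in the membrane arm 1 to 3 lower and 0 to 3 higher. These fits have fewer samples, and fewer genes were called over the whole table too. These were from 706 to 1159 higher in place of 1324, and from 1347 to 1657 lower in place of 1991.

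Same-numbered libraries did not deviate together. Their deviations from the group means had correlations of -0.0668, -0.00212 and -0.0593 over genes, and no library correlated best with its own number. Such correlations cannot show whether same-numbered libraries shared a litter or a day. The design text speaks of 3 pairs but names no shared animal. With a replicate block, 6 members were called lower (3 core and 3 accessory subunits), with 4 in the peripheral arm, and 1 was called higher (1 accessory subunit and 0 Ndufaf factors), 0 genes of the other lists, 0 of the peripheral arm and 1 of the membrane arm. The calls of Ndufs3, Ndufs4, Ndufa2, Ndufa13, Ndufaf3 and Ndufaf8 ended under it. Over all tested genes, 813 were called higher and 1402 lower with the block, in place of 1324 and 1991.

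With the length trend removed, and likewise with length and GC trends removed, 3 members were called higher, of which 1 was an accessory subunit; 0 genes of the other lists, 0 of the peripheral arm and 1 of the membrane arm were. Ndufaf2 was called lower, making 1 Ndufaf factor in place of 0, under DESeq2, limma-voom, the 3 limma fits to FPKM and both length fits. Library totals called 5 accessory subunits, 6 genes of the other lists and 2 subunits of the peripheral arm higher; limma on log2(FPKM + 1) without a filter called 0 in the peripheral arm. Genes of the other lists called higher, 1 in the main fit, were 3 with upper-quartile factors, 2 with DESeq2, 2 without a count filter, 5 with the 5 CPM filter and 3 in each filtered limma fit to FPKM. Leaving out mitochondrially encoded genes removed 6 of the 10 called lower, leaving 4, by construction. Values changed sign for Ndufs8 without control replicate 1 (-0.0717, and up to 0.204 without another library), for Ndufaf1 without iKO replicate 3 (0.155, and down to -0.637 without another) and for Ndufa4 with length and GC trends removed (-0.0292), none of them called. Other than by fewer samples or genes, the cause of these changes was not tested. Counts near 100 per library limit Ndufaf3, and fewer limit Ndufa4l2.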
